A study of Mus musculus with 97 samples.

Results

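In mouse embryonic stem (ES) cells that had received no auxin, 79 genes had more RNA in early G1, the phase that follows mitosis, than in both late G1 and G2. They were chosen from the 9 untreated RNA libraries by 3 conditions on the group means of CPM, a gene's count relative to the library's total count. The early G1 mean was at least 5 CPM, and log2 of early G1 over late G1 and of early G1 over G2, each with 1 CPM added, were both at least 0.5. Of 37620 genes in the count table, 85 (0.226%) met these conditions, and 6 of them, Fos, Jun, Atf3, Cd24a and 2 Zscan4 entries, were left out by name, as were some related genes that did not meet them. The untreated values therefore define the 79 genes and are given here as a description, with no test. The tests below are on the same phase differences in libraries that the choice did not use, those of cells treated with auxin.

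The study as a whole asked how transcription factors and nucleosomes behave through mitosis. Its RNA-seq part holds 18 libraries of ribosome-depleted total RNA from a mouse ES cell line labelled GFP Sox2-AID, whose pluripotency factor Sox2 is fused to a degron: when the plant hormone auxin is added, cells degrade the fusion protein. Auxin acts on the protein, so the Sox2 transcript does not check the labels. There were 6 groups of 3 libraries: early G1, late G1 and G2 without auxin, and the same phases after 0.5 mM auxin for 3 h. All groups share the Sox2-AID allele, gelatine-coated dishes, medium with serum and the cytokine LIF, and 20 µM Hoechst, a DNA dye, in the last 20 min before flow sorting, for which the gates used Hoechst and GFP. The labels do not say whether the line is 1 clone, what GFP reports, whether these cultures also held the 2 kinase inhibitors that the growth protocol calls optional, or whether libraries 1, 2 and 3 came from separate cultures. If they did not, p-values measure only technical spread.

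Total counts ran from 24841963 to 37587322 per library. The summed CPM of 8 ES cell markers was between 2566 and 3176 in every library. Phase markers followed the labels: with auxin, 12 G2/M genes summed to 1932 to 2361 CPM in early G1, 1740 to 1886 in late G1 and 4422 to 4618 in G2, and 12 G1/S genes to 2161 to 2462, 3103 to 3285 and 2225 to 2372 CPM. Each early G1 library had a larger TMM scaling factor (edgeR's correction for the make-up of a library) than the late G1 and G2 libraries of its number and treatment. On plain CPM the median of all 15499 tested genes was higher in early G1, untreated by 0.06 over late G1 and by 0.05 over G2 on the log2(CPM + 1) scale. With TMM-scaled CPM in the same conditions, 37 genes would be chosen, all of them among the 79. Every log2 fold change below is on the TMM scale, where the median of all tested genes was -0.002 for early over late G1, -0.0003 for early G1 over G2 and 0.01 for late G1 over G2.

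When a cell leaves mitosis, its chromosomes decondense, RNA polymerase II returns to genes it had largely left, and RNA synthesis restarts. Transcripts that are made in a burst at that time and decay quickly can be abundant in early G1 and scarce later in the cycle, and in total RNA unspliced precursors are counted along with mature messages. In many cell types, early G1 is also when growth factor signals bear on whether a cell starts another round of division. Whether this holds in these ES cells was not tested.

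The promoters of 4 of the genes tested below are shown because these genes come from different roles (transcription termination, growth control, cytoskeleton, stress response) and were all called higher in early G1 than in both other phases with auxin. Each is the 250 bases before the gene's start in RefSeq (GRCm38.p6), and capitals mark CCAAT boxes, the binding sequence of the factor NF-Y, read on either strand (CCAAT or ATTGG).
Pcf11, chr7:92669913-92670162, minus strand: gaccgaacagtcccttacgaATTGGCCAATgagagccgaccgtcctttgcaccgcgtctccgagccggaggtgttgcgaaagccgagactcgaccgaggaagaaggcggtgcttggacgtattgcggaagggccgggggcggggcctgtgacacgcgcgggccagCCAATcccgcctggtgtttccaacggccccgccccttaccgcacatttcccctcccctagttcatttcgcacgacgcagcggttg
Sesn3, chr9:14276051-14276300, plus strand: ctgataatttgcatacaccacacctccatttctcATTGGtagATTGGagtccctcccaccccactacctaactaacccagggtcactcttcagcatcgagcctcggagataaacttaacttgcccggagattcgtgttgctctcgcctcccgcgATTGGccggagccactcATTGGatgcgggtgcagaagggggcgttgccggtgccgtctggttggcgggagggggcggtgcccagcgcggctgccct
Rhob, chr12:8500010-8500259, minus strand: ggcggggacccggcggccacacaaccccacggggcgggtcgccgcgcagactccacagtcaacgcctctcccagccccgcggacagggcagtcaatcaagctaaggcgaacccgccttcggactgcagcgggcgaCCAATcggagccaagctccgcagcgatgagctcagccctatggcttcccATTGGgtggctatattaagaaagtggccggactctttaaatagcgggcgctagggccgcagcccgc
Gadd45b, chr10:80929841-80930090, plus strand: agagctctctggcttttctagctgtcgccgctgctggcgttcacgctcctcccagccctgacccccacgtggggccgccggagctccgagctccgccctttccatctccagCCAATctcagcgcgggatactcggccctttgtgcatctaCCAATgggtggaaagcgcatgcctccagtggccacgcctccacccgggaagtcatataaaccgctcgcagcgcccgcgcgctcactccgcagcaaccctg
The Pcf11 promoter has 3 CCAAT boxes, 2 of them head to head at its far end, Sesn3 has 4, all on the opposite strand, and Rhob and Gadd45b have 2 each. These sequences were chosen after the values were seen.

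RefSeq held 76 of the 79 genes by symbol or synonym, 69 of them protein-coding, and promoter entries for 56, in 72 windows of 300 bases (250 before the start and 50 after it). A CCAAT box was in 44.4% of those windows, against 37.9% of 14381 windows of tested genes and 37.4% of all 32851. The GC box GGGCGG was in 76.4%, against 61.4% of windows of tested genes and 35.7% of all. A TATA box (TATAAA) was in 15.3%, against 7.45% and 13.6%, with Cebpb, Gadd45b, Krt8, Pik3r1 and Ppp1r10 among the 11 windows. Matches to the E2F motif were in 6.94%, against 3.94% and 2.26%, in windows of Casp2, Dnajb9, Rassf1 and Zfp367. The AP-1 motif TGANTCA (6.94%, against 4.98% and 7.81%), the full cyclic AMP response element TGACGTCA (4.17%, against 2.92% and 1.79%), the CArG box (1.39%, against 1.39% and 1.63%), the CHR motif TTTGAA (12.5%, against 12.0% and 17.9%) and the TEAD motif GGAATG (12.5%, against 12.3% and 14.7%) were also counted. The E-box CACGTG was in 5.56% (9.92% and 7.15%), the octamer ATGCAAAT in 4.17% (1.42% and 1.74%), the Sox motif CATTGTT in 4.17% (1.99% and 3.78%) and the Esrrb motif TCAAGGTCA in 0 of 72 (0.271% and 0.423%). All motifs were read on both strands, the GC box can overlap other GC-rich motifs, and these shares are descriptions with no test. Median GC content was 60.8% in the windows of the 79 genes and 60.7% in those of tested genes.

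In untreated early G1 the 79 genes had means of 5.07 to 422 CPM, with a median of 10.4. The mean was under 10 CPM for 37 of them and above 50 CPM for 5. Per length, Epha2 had the highest level, 22.7 ± 5.15 TPM (SD, n = 3), followed by the gene model Gm8332 with 7.04 ± 0.61, Ppp1r10 with 5.52 ± 1.29, Pcf11 with 4.73 ± 0.66, the non-coding Gt(ROSA)26Sor with 3.88 ± 0.40 and Lars2 with 3.67 ± 3.00 TPM. The SDs of Gm8332, Ppp1r10, Pcf11, Gt(ROSA)26Sor and Lars2 overlap those of their neighbours in this order. Several genes described below had far lower means per length, among them Pik3r1 (0.42 TPM), Dnahc8 (0.35 TPM), Rnf103 (0.34 TPM) and Col11a2 (0.32 TPM). All 3 untreated early G1 libraries were above every late G1 and G2 library in 64 of the 79 genes (8.03% of tested genes met this). Library 3 was the highest of the 3 in 35 genes, library 1 in 26 and library 2 in 18. Late G1 was below G2 in the untreated means of 52 genes.

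Just inside the lower limit of level were Rnf103 (5.07 CPM), Lrrc56 (5.10 CPM) and Thap6 (5.15 CPM), and just outside were Epdr1 and Zbtb4 (4.73 CPM each) and Phf7 (4.69 CPM). At the limit against late G1, A330035P11Rik (a log2 difference of 0.501), Mycl1 (0.504) and Ildr1 (0.507) were inside and Slc15a2 (0.499), Mtcp1 (0.497) and Armcx5 (0.492) outside. At the limit against G2, Elf3 (0.504), Bnip3 (0.506) and Id3 (0.519) were inside and Bmi1 (0.499), Krt18 (0.497) and Irf1 (0.488) outside.

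With auxin, the same genes were again higher in early G1, in most but not all cases. All 79 passed the filter on low counts in the treated libraries. Against late G1, 46 of the 79 (58.2%) were called higher (edgeR adjusted p under 0.05), where 3.53% of all tested genes were, and 0 were called lower, where 3.17% were. Against G2, 36 (45.6%) were called higher, where 1.23% of tested genes were, and 0 lower, where 1.73% were. The log2 fold change was above 0 for 77 genes in each contrast, with medians of 0.63 against late G1 and 0.61 against G2. In all, 28 genes (35.4%, against 0.445% of tested genes) were called higher than in both phases, 54 in at least 1 contrast and 25 in neither. For calls in at least 1 contrast or in neither, the share of tested genes was not computed.

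Libraries with the same number resembled each other across the treated groups, so the fit was repeated with the number as a block. It called 70 genes higher than in late G1 (15.1% of tested genes), 64 higher than in G2 (11% of tested genes) and 61 higher than in both (5.1%), with 0 lower in either contrast (18.1% and 14% of tested genes). In that fit 6 genes were called in neither contrast, and the share of tested genes was not computed for this count. Within pairs of same-numbered treated libraries, 69 of the 79 were higher in early G1 than in both other phases in 3 of 3 pairs on TMM-scaled CPM, which 14.2% of tested genes were. All 3 early G1 libraries lay above all late G1 libraries in 59 genes on that scale (14.9% of tested genes) and above all G2 libraries in 58 (12% of tested genes). On plain CPM the counts were 65 (21.8% of tested genes), 58 (16.3%) and, for both phases at once, 54 (9.13%), and 0 genes had all early G1 libraries below all of late G1 (6.7%) or of G2 (6.57%).

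These counts depend on single libraries: 19 of the 46 calls against late G1 and 9 of the 36 against G2 held whichever of the 9 treated libraries was left out. All leave-outs here and below used the fit without the block, so they do not show how the blocked calls depend on single libraries. With all libraries, the 46 and the 36 genes were also called in the blocked fit. Against late G1 the unblocked fit called 21 without auxin-treated early G1 library 1, 27 without early G1 library 2, and 29, 27 and 24 without late G1 libraries 1, 2 and 3. Against G2 it called 11, 18 and 21 without early G1 libraries 1, 2 and 3, and 21, 22 and 10 without G2 libraries 1, 2 and 3. For both contrasts together the count was 8 and 13 without early G1 libraries 1 and 2, 17 without each of late G1 libraries 2 and 3, and 17 and 9 without G2 libraries 1 and 3. On TPM, a deposited scale that the composition of each library also sets, 1 gene was called against late G1 and 0 against G2 with a pseudocount of 1 (1 and 0 also with 0.1), and 31 and 17 after the TPM were TMM-scaled. Treated and untreated libraries of the same number also resembled each other, with correlations of deviations from the group mean of 0.29 to 0.306 in early G1, 0.252 to 0.304 in late G1 and 0.044 to 0.239 in G2. Different-numbered pairs ran from -0.198 to -0.115 in early G1, -0.227 to -0.032 in late G1 and -0.269 to 0.088 in G2, where the lowest same-numbered pair (library 2) lay below the highest different-numbered one. Because deviations sum to 0 within a group, positive same-numbered values by themselves push these values below 0 on balance. The treated libraries are thus not fully independent of those that chose the genes.

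**Figure D1:**
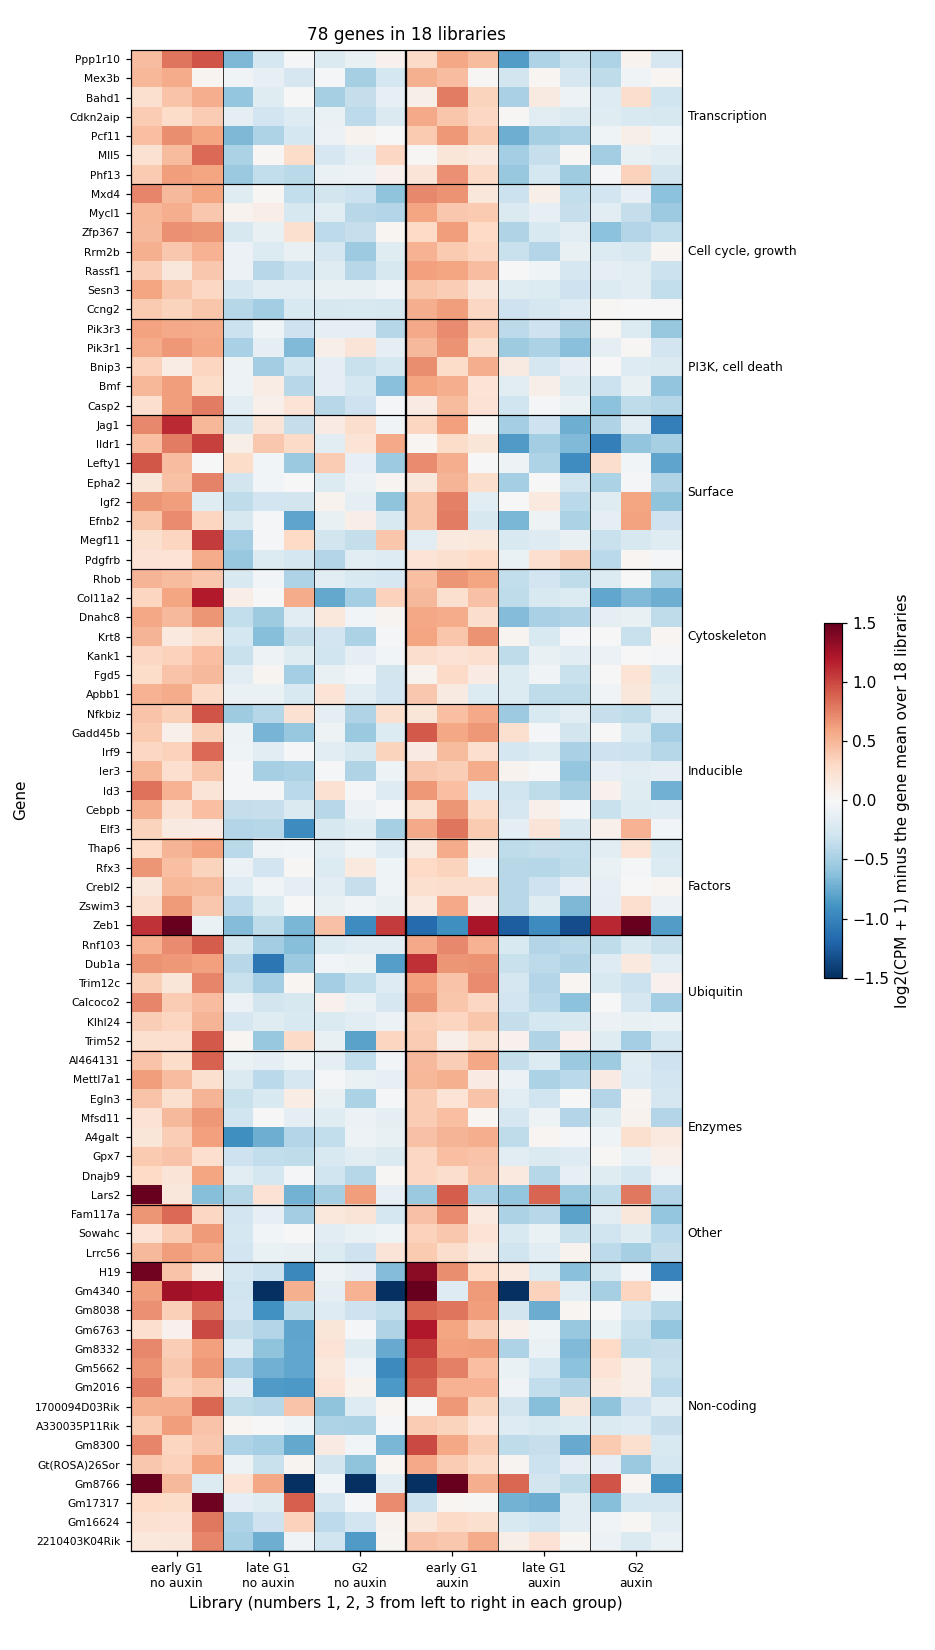
Heat map of 78 of the 79 genes (rows, grouped by role) in 18 libraries (columns, grouped by phase and auxin), with colour for log2(CPM + 1) minus the gene's mean over all libraries, from -1.5 (blue) to 1.5 (red) with values beyond shown at the end colours. The untreated early G1 columns are red because the genes were chosen on them; the auxin-treated early G1 columns, which were not used, are red in most rows, while Zeb1, Lars2 and Gm8766 differ between libraries of 1 group.

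**Figure D2:**
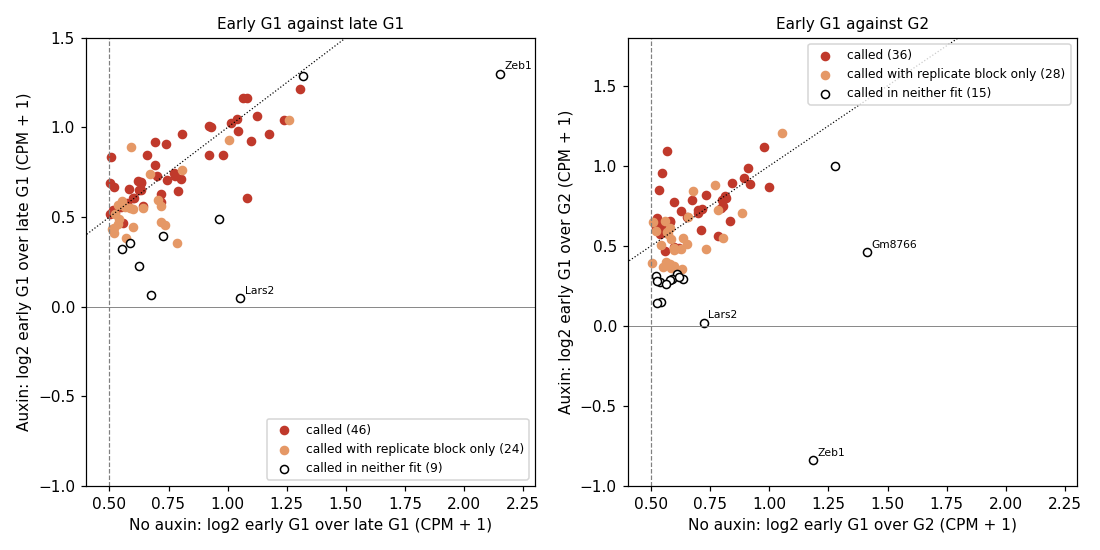
Each point is 1 of the 79 genes, with its untreated log2 difference (x axis, the values that chose it, dashed line at the limit of 0.5) against the same difference with auxin (y axis), both from group means of CPM + 1, for early G1 over late G1 (left) and over G2 (right). Filled red points are the 46 and 36 genes called in the treated libraries, orange points were called with the replicate block alone, and the dotted line marks equal differences; Zeb1 is below 0 on the right.

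Between late G1 and G2 with auxin, a difference the choice did not read, 1 of the 79 genes was called higher in late G1 (Col11a2; 2.13% of tested genes) and 1 lower (Pcf11; 2.61% of tested genes), and the median log2 difference was -0.04. With the block 7 were called higher (12.9% of tested genes) and 13 lower (13.2%). On CPM, 4 genes had all late G1 libraries above all G2 libraries (8.65% of tested genes) and 14 had them below (13.5%).

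Genes that act on transcription itself were led by Pcf11 and Ppp1r10. Pcf11 is a subunit of the complex that cleaves and polyadenylates messenger RNA precursors and helps RNA polymerase II to terminate. Untreated, it had 105, 125 and 115 CPM in early G1, 47.5, 54.95 and 63.6 CPM in late G1 and 71.7, 79.4 and 75.9 CPM in G2. With auxin it had 100.3, 121 and 101 CPM in early G1, 45.4, 53.6 and 55.1 CPM in late G1 and 73.2, 81.3 and 73.04 CPM in G2. Early G1 was highest, late G1 lowest and G2 between them in both sets, with no overlap. The log2 fold change with auxin was 0.97 ± 0.08 (SE) over late G1 (edgeR adjusted p 9.41e-05) and 0.43 ± 0.08 over G2 (0.016, but 0.0715 without early G1 library 2), and late G1 was below G2 by 0.53 ± 0.08 (adjusted p 0.00309). Ppp1r10, known as PNUTS, directs protein phosphatase 1 to RNA polymerase II and its elongation factors during termination. It had 78.7, 100.02 and 111 CPM in early G1, 35.4, 47.4 and 55.95 CPM in late G1 and 48.9, 52.5 and 59.7 CPM in G2 without auxin. Treated libraries of Ppp1r10 had 70.00, 85.5 and 79.6 CPM in early G1, 31.4, 41.1 and 44.96 CPM in late G1 and 41.1, 59.2 and 47.7 CPM in G2. Its early G1 libraries lay above all others, by 0.91 ± 0.13 over late G1 (adjusted p 0.00183) and 0.61 ± 0.13 over G2 (0.0231, lost in 4 of 9 leave-outs, up to 0.0929 without early G1 library 3).

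Of the 7 genes in this role, 4 were called higher than in late G1, 3 higher than in G2 and 3 in neither. Over all 79 genes 58.2% were called higher than in late G1 and 45.6% higher than in G2, and over all tested genes 3.53% and 1.23%. Here and in the roles below, genes already chosen were grouped by hand, and differences between roles were not tested. Cdkn2aip, which binds the tumour suppressor ARF, was called in both (log2 0.47 ± 0.11 and 0.60 ± 0.11). Cdkn2aip lost these calls in 4 and 2 of 9 leave-outs (highest adjusted p 0.115 and 0.0696, both without early G1 library 1). Phf13, a reader of methylated histone H3, had treated values of 32.8, 46.6 and 35.3 CPM in early G1, 19.1, 23.8 and 19.5 CPM in late G1 and 28.4, 36.6 and 23.5 CPM in G2. The early G1 and G2 ranges of Phf13 overlapped, and only the difference from late G1 was called (0.78 ± 0.14, adjusted p 0.00824; against G2 0.269, and 0.00173 with the block). Bahd1, Mll5 and Mex3b had log2 differences of 0.33 to 0.54 over late G1. They were called in neither contrast without the block and in both with it, with blocked adjusted p of 0.00146 and 0.00471, 0.0116 and 0.0109, and 0.0152 and 0.0232.

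A list of 16 genes of transcription elongation and the 7SK complex, of which none is among the 79, had 3 called higher in early G1 than in late G1 and 0 lower, and 0 called against G2 (with the block 3 higher and 2 lower, and 2 higher and 2 lower). Ell2, Hexim1 and Aff4 were the 3, at 27.6, 82.5 and 213 CPM in treated early G1 and 19.4, 60.4 and 161 in late G1. For this list and those below, the counts stand beside the following shares of all tested genes. Against late G1, 3.53% were called higher and 3.17% lower (15.1% and 18.1% with the block). Against G2, 1.23% were called higher and 1.73% lower (11% and 14% with the block).

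All 7 regulators of the cell cycle and growth were called higher in early G1 than in late G1, and 6 of them higher than in G2. The shares were 58.2% and 45.6% over the 79 genes, and 3.53% and 1.23% over all tested genes. Ccng2, an atypical cyclin that goes with cell cycle arrest, had 11.8, 11.4 and 12.1 CPM in early G1, 6.26, 5.81 and 7.33 CPM in late G1 and 7.297, 7.34 and 7.298 CPM in G2 without auxin. With auxin it had 13.3, 14.1 and 11.1 CPM in early G1, 6.92, 7.25 and 7.54 CPM in late G1 and 8.94, 8.79 and 8.86 CPM in G2. Its 3 treated G2 libraries were nearly equal and lay between the other phases. The increase over late G1 was 0.73 ± 0.11 (adjusted p 0.00369) and that over G2 was 0.46 ± 0.11 (0.0459), a call lost whichever of the 9 libraries was left out (highest adjusted p 0.169, without early G1 library 1). With the block and all libraries, the edgeR adjusted p over G2 was 0.00082. Rassf1, a Ras-association protein and tumour suppressor that binds microtubules, had 26.9, 23.4 and 27.7 CPM in early G1, 19.4, 15.3 and 16.3 CPM in late G1 and 18.1, 15.2 and 17.3 CPM in G2 without auxin. Its treated values were 32.1, 31.6 and 28.9 CPM in early G1, 20.7, 19.7 and 17.2 CPM in late G1 and 18.5, 18.2 and 16.3 CPM in G2. The 3 treated early G1 libraries were all higher than any other library of either treatment, and both calls (log2 0.58 ± 0.10 and 0.74 ± 0.10) held in 9 of 9 leave-outs.

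Sesn3, a sestrin that restrains the growth kinase complex mTORC1, had treated values of 9.71, 9.33 and 8.14 CPM in early G1, 6.08, 5.92 and 5.48 CPM in late G1 and 5.93, 6.098 and 5.21 CPM in G2. Early G1 of Sesn3 lay above both other phases, which overlapped, with log2 fold changes of 0.54 ± 0.12 and 0.59 ± 0.12 (adjusted p 0.0251 and 0.0243). Sesn3 lost these calls in 4 and 5 of 9 leave-outs (highest adjusted p 0.108 and 0.117, both without early G1 library 1). Mxd4, a partner of Max that opposes Myc, rose by 0.73 ± 0.19 and 0.93 ± 0.19. Mxd4 lost these calls in 5 and 4 of 9 leave-outs (highest adjusted p 0.145 and 0.101, both without early G1 library 1). Mycl1, a Myc family member, rose as well, by 0.71 ± 0.16 and 0.88 ± 0.16. Mycl1 lost these calls in 3 and 2 of 9 leave-outs (highest adjusted p 0.0861 and 0.0599, both without early G1 library 1). Zfp367, a zinc finger transcription factor, was at 37.4, 46.98 and 37.4 CPM in early G1, 21.8, 25.6 and 26.8 CPM in late G1 and 19.3, 21.9 and 23.2 CPM in G2 with auxin. It rose by 0.62 ± 0.11 over late G1 and 0.85 ± 0.11 over G2 (adjusted p 0.0066 and 0.00116), and both calls held in every leave-out. Rrm2b, a p53-inducible subunit of ribonucleotide reductase, was called against late G1 (0.75 ± 0.17, adjusted p 0.0217, lost in 4 of 9 leave-outs, up to 0.0886 without early G1 library 1) and not against G2 (0.59 ± 0.17, 0.0828; 0.00187 with the block).

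Rrm2b was the only one of the 79 in a list of 22 p53 targets, and of the other 21, 0 were called higher and 2 lower than in late G1 (1 and 8 with the block) and 1 higher and 0 lower than in G2 (4 and 2 with the block). In the list of 17 G1 cyclins and cyclin-dependent kinase inhibitors, to which Ccng2 belongs, 1 of the other 16 was called higher and 1 lower than in late G1 (4 and 5 with the block), and 0 higher and 1 lower than in G2 (3 and 3 with the block).

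Both PI3K regulatory subunits among the genes rose in early G1. Pik3r1 encodes p85 alpha and Pik3r3 p55 gamma, proteins that hold the catalytic subunit of phosphatidylinositol 3-kinase and link it to activated receptors. Pik3r1 had 13.9, 14.98 and 14.2 CPM in early G1, 6.26, 8.16 and 5.43 CPM in late G1 and 9.79, 10.6 and 8.22 CPM in G2 without auxin. Treated libraries of Pik3r1 had 13.2, 15.2 and 11.2 CPM in early G1, 6.03, 6.34 and 5.61 CPM in late G1 and 8.17, 9.29 and 7.35 CPM in G2. Its treated early G1 libraries were all above its G2 libraries, which were all above late G1. The differences were 1.04 ± 0.13 over late G1 (adjusted p 0.000707) and 0.61 ± 0.12 over G2 (0.0202, lost in 4 of 9 leave-outs, up to 0.0914 without G2 library 3). Pik3r3 had 23.4, 22.9 and 22.8 CPM in early G1, 11.9, 14.4 and 12.00 CPM in late G1 and 13.5, 13.6 and 10.9 CPM in G2 without auxin. Treated libraries of Pik3r3 had 22.9, 25.4 and 20.1 CPM in early G1, 11.3, 11.9 and 10.4 CPM in late G1 and 15.3, 12.9 and 9.85 CPM in G2. Late G1 and G2 of Pik3r3 overlapped, and early G1 exceeded them by 0.92 ± 0.15 (adjusted p 0.00413) and 0.77 ± 0.15 (0.015, lost in 3 of 9 leave-outs, up to 0.0625 without early G1 library 1).

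Of the 3 cell death genes placed with them, Casp2, an initiator caspase, and Bmf, a BH3-only protein that binds Bcl-2 relatives, were called against G2. Over all tested genes 1.23% were called higher than in G2. Casp2 had treated values of 27.5, 35.4 and 29.4 CPM in early G1, 20.2, 24.9 and 23.5 CPM in late G1 and 16.1, 19.1 and 18.4 CPM in G2. It was ordered early G1, late G1, G2 without overlap, with 0.72 ± 0.10 over G2 (adjusted p 0.00281) and 0.33 ± 0.10 over late G1 (0.0744; 0.000467 with the block). Bmf was 0.81 ± 0.15 above G2 (adjusted p 0.0125, lost in 2 of 9 leave-outs, up to 0.0684 without early G1 library 1). It was 0.51 ± 0.15 above late G1 (0.0586; 0.000201 with the block). Bnip3, a mitophagy receptor and hypoxia target, had adjusted p of 0.0781 and 0.0633, and 8.86e-06 and 1.37e-06 with the block. It and Egln3 stand in a list of hypoxia and glycolysis genes, of which 0 of the other 15 tested were called against late G1 and 1 was called higher than in G2 (with the block 4 higher and 6 lower, and 4 higher and 0 lower).

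Epha2 was the most abundant of the 79 and 1 of 8 ligands, receptors and surface proteins. It is a receptor tyrosine kinase for ephrins, ligands held on neighbouring cells. Its untreated values were 345, 412 and 508 CPM in early G1, 250.4, 295 and 302 CPM in late G1 and 263, 285 and 313 CPM in G2. The treated ones were 341, 433 and 363 CPM in early G1, 213, 302 and 247 CPM in late G1 and 217, 299 and 222 CPM in G2. Library 2 was the highest in each treated group, and the early G1 range stayed above the other ranges. The difference was 0.48 ± 0.12 over late G1 (adjusted p 0.0336) and 0.56 ± 0.12 over G2 (0.0274), and each call was lost in 5 of 9 leave-outs (adjusted p up to 0.118, without early G1 library 2, and up to 0.113, without G2 library 3). With the block and all libraries, the edgeR adjusted p were 1.19e-08 and 1.83e-09.

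Ildr1, a protein of tricellular junctions, combined a phase difference with a lower level after auxin. It had 24.7, 31.00 and 37.3 CPM in early G1, 18.9, 23.8 and 21.9 CPM in late G1 and 15.8, 20.6 and 26.8 CPM in G2 without auxin. Treated libraries of Ildr1 had 18.1, 21.7 and 20.3 CPM in early G1, 9.37, 12.1 and 10.9 CPM in late G1 and 8.22, 11.5 and 12.3 CPM in G2. The treated range lay below the untreated one in all 3 phases, and within each treatment early G1 was highest, with library 1 untreated overlapping G2 library 3. Since the untreated early G1 libraries chose the gene, that difference is not tested. Within the treated libraries early G1 was higher by 0.80 ± 0.14 (adjusted p 0.00691) and 0.85 ± 0.14 (0.00744), and both calls held in 9 of 9 leave-outs.

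Jag1, a ligand of Notch receptors, had treated values of 7.15, 9.04 and 5.62 CPM in early G1, 3.61, 4.27 and 2.94 CPM in late G1 and 3.78, 4.84 and 2.200 CPM in G2. Its early G1 libraries were the highest, with 0.91 ± 0.24 over late G1 (adjusted p 0.0442, lost in 6 of 9 leave-outs, up to 0.146 without early G1 library 2) and 0.95 ± 0.24 over G2 (0.0567; 9.22e-06 with the block). In the list of Notch targets, 2 of the other 7 tested genes were called higher than in both phases and 0 lower: Hes1, a repressor that Notch induces, at 25.0, 13.7 and 13.7 CPM in treated early G1, late G1 and G2, and Hey1 at 1.62, 0.607 and 0.641. With the block 5 were higher and 1 lower than in late G1, and 6 higher and 0 lower than in G2. The other 5 genes of this role were called in neither contrast without the block. Efnb2, an ephrin, had treated values of 11.1, 14.5 and 6.72 CPM in early G1, 4.66, 7.604 and 5.58 CPM in late G1 and 7.26, 12.8 and 6.33 CPM in G2, with G2 library 2 above 2 early G1 libraries. Its difference from late G1 passed with the block (0.000433; 0.139 without) and that from G2 did not (0.187). Lefty1, a Nodal antagonist, was highest in library 1 and lowest in library 3 of all 6 groups, and was higher in early G1 within each pair of same-numbered libraries, with adjusted p of 1.35e-06 and 0.00025 with the block and 0.144 and 0.405 without. Igf2, a growth factor, had adjusted p of 0.466 and 0.603 without the block and 0.0338 and 0.0467 with the block. Megf11 and the growth factor receptor Pdgfrb are among those described below.

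In the cytoskeleton and matrix role 5 of 7 genes were called against late G1 (3.53% of tested genes). Against G2 3 were called (1.23% of tested genes), and 2 were called in neither. Rhob, a small GTPase that acts on actin and endosomes, had 9.77, 9.51 and 8.98 CPM in early G1, 5.45, 6.37 and 4.51 CPM in late G1 and 5.79, 5.48 and 5.34 CPM in G2 without auxin. Treated libraries of Rhob had 9.39, 10.9 and 10.4 CPM in early G1, 4.85, 5.19 and 4.83 CPM in late G1 and 5.56, 6.57 and 4.43 CPM in G2. Early G1 lay above both other phases with no overlap: 0.95 ± 0.13 over late G1 (adjusted p 0.00202) and 0.83 ± 0.13 over G2 (0.00609), and both calls held in 9 of 9 leave-outs. Rhob also stands in a list of 20 tested targets of the SRF and YAP-TEAD factors, of which 2 of the other 19 were called higher than in late G1 and 0 higher and 2 lower than in G2. With the block 9 were higher and 2 lower than in late G1, and 3 higher and 11 lower than in G2, the opposite direction to Rhob. Dnahc8, an axonemal dynein heavy chain, had treated values of 25.9, 25.3 and 20.6 CPM in early G1, 10.4, 11.8 and 12.1 CPM in late G1 and 15.4, 15.7 and 12.8 CPM in G2. It rose by 0.97 ± 0.11 over late G1 (adjusted p 0.000564) and by 0.64 ± 0.11 over G2 (0.00981, 0.0549 without early G1 library 1). Col11a2, a fibrillar collagen chain, had treated values of 4.35, 3.52 and 4.17 CPM in early G1, 1.94, 2.24 and 2.299 CPM in late G1 and 1.22, 1.41 and 1.296 CPM in G2. Each phase of Col11a2 was separate from the others, and early G1 exceeded G2 by 1.55 ± 0.18 (adjusted p 0.000614), late G1 by 0.80 ± 0.17 (0.0177, lost in 4 of 9 leave-outs, up to 0.0756 without early G1 library 1), with late G1 above G2 by 0.75 ± 0.18 (0.0382).

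Krt8, a keratin of simple epithelia and of trophectoderm, had treated values of 22.8, 20.04 and 24.1 CPM in early G1, 15.2, 12.5 and 14.5 CPM in late G1 and 14.7, 11.6 and 15.1 CPM in G2. Its differences were 0.57 ± 0.15 over late G1 (adjusted p 0.0489) and 0.62 ± 0.15 over G2 (0.0522; 1.79e-06 with the block), and the first call was lost in 8 of 9 leave-outs. The summed level of 8 trophectoderm markers, Krt8 included, was 55.7 to 59.3 CPM in treated early G1, 39.9 to 49.4 in late G1 and 36.4 to 44.4 in G2, with 5 of 8 above a mean of 1 CPM, and its part in the result was not tested. Kank1, an adhesion adaptor, was called against late G1 (0.43 ± 0.11, adjusted p 0.039) and lost that call in 8 of 9 leave-outs.

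The inducible regulators are genes whose transcription responds to stress, cytokines or serum. Of these 7 genes, 4 were called in each contrast (3.53% and 1.23% of tested genes) and 3 in both (0.445%). Gadd45b, a stress protein of the Gadd45 family, had 19.1, 15.2 and 18.7 CPM in early G1, 13.6, 8.495 and 9.34 CPM in late G1 and 13.5, 9.45 and 12.3 CPM in G2 without auxin. Its treated values were 28.1, 22.01 and 23.1 CPM in early G1, 17.2, 14.1 and 11.7 CPM in late G1 and 14.4, 12.1 and 9.79 CPM in G2. It rose by 0.67 ± 0.18 over late G1 (adjusted p 0.0475, lost in 6 of 9 leave-outs, up to 0.163 without early G1 library 1) and by 0.94 ± 0.18 over G2 (0.0166, lost in 4 of 9 leave-outs, up to 0.0774 without early G1 library 1). Nfkbiz, an atypical inhibitor of the NF-kB family, had treated values of 5.15, 6.39 and 7.01 CPM in early G1, 2.72, 3.61 and 3.82 CPM in late G1 and 3.27, 3.17 and 3.797 CPM in G2. It rose by 0.78 ± 0.18 and 0.79 ± 0.18 (adjusted p 0.0231 and 0.0346). Irf9, a component of the interferon-induced complex ISGF3, rose by 0.65 ± 0.16 and 0.73 ± 0.16 (adjusted p 0.034 and 0.0316). Irf9 lost these calls in 6 and 6 of 9 leave-outs (highest adjusted p 0.117 and 0.118, both without early G1 library 2). Nfkbiz lost these calls in 4 and 6 of 9 leave-outs (highest adjusted p 0.0876 and 0.13, without late G1 library 1 and without early G1 library 3). Of the other 11 tested genes in the NF-kB and interferon list, 1 was called higher and 1 lower than in late G1 (5 and 1 with the block) and 0 against G2 (7 higher and 1 lower with the block).

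Cebpb, a leucine zipper factor of acute responses, was called against G2 (0.71 ± 0.15, adjusted p 0.0274, lost in 6 of 9 leave-outs, up to 0.112 without early G1 library 2). With the block it was also called against late G1 (0.00685; 0.0909 without). Elf3, an epithelial ETS factor, was called against late G1 (0.60 ± 0.15, adjusted p 0.0387, lost in 5 of 9 leave-outs, up to 0.131 without early G1 library 2). With the block Elf3 was also called against G2 (0.00166; 0.236 without). Id3, an inhibitor of basic helix-loop-helix factors and a target of BMP signals, had treated values of 16.7, 14.4 and 8.85 CPM in early G1, 8.16, 7.64 and 6.96 CPM in late G1 and 10.7, 8.91 and 5.82 CPM in G2. The library 3 values of Id3 were lowest in every group, and its differences passed only with the block (adjusted p 4.15e-05 and 0.00031; 0.104 and 0.23 without). Ier3, an early response gene, had 0.00874 and 0.00894 with the block and 0.0907 and 0.112 without.

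Gadd45b, Cebpb, Id3 and Ier3 are 4 of the 33 tested genes in a list of immediate early genes beside those left out by name. Of the other 29, 6 were called higher than in late G1, 4 higher than in G2 and 0 lower in either, and 16 and 15 higher and 1 lower in each with the block. They include Id1, at 75.2, 50.6 and 51.7 CPM in treated early G1, late G1 and G2, Klf10 (128, 80.8 and 104 CPM) and Nr4a2 (1.14, 0.231 and 0.288 CPM), all called higher than in late G1, and Id1 and Nr4a2 also higher than in G2.

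Among 5 genes with names of transcription factors, of which RefSeq gives Thap6 as a transcribed pseudogene, 4 were called against late G1 and 0 against G2. The shares of tested genes called higher were 3.53% and 1.23%. Rfx3, a regulator of cilium genes (0.67 ± 0.16, adjusted p 0.0259), Crebl2 (0.52 ± 0.13, 0.0336), Thap6 (0.74 ± 0.18, 0.0327) and Zswim3 (0.70 ± 0.17, 0.0324) were the 4, each lost in 4 or 5 of 9 leave-outs. Their log2 differences from G2 were 0.24 to 0.35 with adjusted p of 0.3 to 0.49. In a list of 18 centriole and cilium genes, none of them among the 79, 0 were called higher, 2 lower than in late G1 and 3 lower than in G2 (with the block 2 higher and 4 lower, and 1 higher and 5 lower). Over all tested genes the block called 15.1% higher and 18.1% lower than in late G1, and 11% and 14% against G2.

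Of 6 ubiquitin ligases, tripartite-motif proteins, deubiquitinases and autophagy receptors, 5 were called in both contrasts (0.445% of tested genes). Klhl24, an adaptor of a cullin ubiquitin ligase, had 86.5, 83.96 and 95.7 CPM in early G1, 55.9, 58.8 and 56.9 CPM in late G1 and 57.3, 59.7 and 63.1 CPM in G2 without auxin. Treated libraries of Klhl24 had 86.04, 84.1 and 89.4 CPM in early G1, 51.98, 55.8 and 56.6 CPM in late G1 and 62.9, 61.7 and 62.5 CPM in G2. Its treated groups did not overlap, while untreated late G1 and G2 did. Treated early G1 was 0.56 ± 0.08 above late G1 (adjusted p 0.00202) and 0.41 ± 0.08 above G2 (0.0185, lost in 4 of 9 leave-outs, up to 0.0851 without early G1 library 3). Rnf103, a ubiquitin ligase of the endoplasmic reticulum, had 4.27, 5.02 and 5.91 CPM in early G1, 2.12, 1.56 and 1.37 CPM in late G1 and 2.21, 2.28 and 2.304 CPM in G2 without auxin. With auxin it had 4.47, 5.098 and 4.296 CPM in early G1, 2.15, 1.72 and 1.79 CPM in late G1 and 1.84, 2.14 and 1.93 CPM in G2. Every early G1 library was above every late G1 and G2 library. The log2 fold changes were 1.18 ± 0.17 (adjusted p 0.0021) and 1.16 ± 0.17 (0.00287), and both calls held in 9 of 9 leave-outs. Calcoco2, the autophagy receptor NDP52, had treated values of 26.7, 22.2 and 20.6 CPM in early G1, 13.2, 12.2 and 10.3 CPM in late G1 and 16.3, 13.6 and 11.1 CPM in G2. It rose by 0.86 ± 0.16 and 0.69 ± 0.16 (adjusted p 0.0094 and 0.0389), and the call over G2 was lost in 6 of 9 leave-outs, up to 0.155 without early G1 library 1. Trim12c, a tripartite-motif protein with close relatives next to it in the genome, rose by 0.83 ± 0.19 and 0.78 ± 0.19. Trim12c lost these calls in 4 and 8 of 9 leave-outs (highest adjusted p 0.0935 and 0.155, without late G1 library 2 and without early G1 library 3). Trim52 was called in neither contrast, and against G2 with the block (0.0021; 0.168 without).

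The fifth gene called in both was Dub1a, named Usp17lb in RefSeq, a deubiquitinase of the Usp17 family. It had 5.31, 5.19 and 5.06 CPM in early G1, 1.96, 0.863 and 1.69 CPM in late G1 and 2.85, 2.74 and 1.23 CPM in G2 without auxin. Treated libraries of Dub1a had 7.41, 5.23 and 5.297 CPM in early G1, 2.13, 1.997 and 1.89 CPM in late G1 and 2.45, 3.37 and 2.53 CPM in G2. Early G1 was 1.48 ± 0.19 above late G1 (adjusted p 0.00123) and 1.05 ± 0.19 above G2 (0.0108, lost in 3 of 9 leave-outs). Usp17 genes are transcribed in the rare ES cells that resemble the 2-cell embryo, together with the Zscan4 genes left out by name. Gm5662, Gm2016 and Gm8300 stand with Dub1a in the list drawn up for that state. Gm5662 had treated values of 16.4, 14.5 and 11.5 CPM in early G1, 7.51, 6.59 and 4.97 CPM in late G1 and 9.52, 8.71 and 6.27 CPM in G2. It was 1.05 ± 0.20 above late G1 (adjusted p 0.00951) and 0.72 ± 0.19 above G2 (0.0671; 1.61e-06 with the block). Gm2016 had 0.94 ± 0.20 and 0.70 ± 0.19 (adjusted p 0.0158, lost in 3 of 9 leave-outs, up to 0.0689 without early G1 library 1, and 0.0774; against G2 2.84e-05 with the block) and Gm8300 1.33 ± 0.24 and 0.54 ± 0.23 (0.00805 and 0.244; against G2 0.00273 with the block).

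Of the other 8 tested genes of that list, 3 were called higher than in late G1, all Dub genes (Dub3 at 2.45, 0.678 and 1.38 CPM in treated early G1, late G1 and G2), and 0 higher than in G2 (4 higher and 1 lower with the block). The summed level of the 4 of 6 markers of this state that the table held was 18.7 to 24.9 CPM in untreated early G1, 7.80 to 10.6 in late G1 and 10.3 to 18.9 in G2, and with auxin 21.4 to 29.6, 9.64 to 11.3 and 13.2 to 18.1. Early G1 was separate from late G1 in both sets and from G2 with auxin, while untreated early G1 and G2 overlapped. The listed markers include Zscan4c and Zscan4d. Zscan4 entries also met the untreated conditions before they were left out by name, so the untreated separation is a description with no test. More cells in this state and more RNA per such cell cannot be told apart in bulk samples, and the same holds for every gene here. These genes and Gm8332, Gm6763, Gm8038 and Gm4340 may have near-identical copies, which the Gm symbols do not show and which was not tested. The authors' counting could split or move reads among such copies, so each single value is uncertain. In RefSeq gene order Gm8332 and Gm5662 lie with 1 annotated gene between them, and Gm6763 and Gm4340 with 4.

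Among 9 enzymes, chaperones and transporters, 4 were called against late G1 (3.53% of tested genes), 2 against G2 (1.23%) and 4 in neither. AI464131, a glycosidase named Myorg in RefSeq, was called in both, with treated values of 7.47, 6.84 and 8.04 CPM in early G1, 3.74, 4.27 and 3.11 CPM in late G1 and 3.19, 4.34 and 3.89 CPM in G2 and differences of 0.91 ± 0.16 and 0.91 ± 0.16 (adjusted p 0.00691 and 0.0101) that held in 9 of 9 leave-outs. Gpx7, a peroxidase of the endoplasmic reticulum (0.55 ± 0.12), A4galt, which makes the glycolipid Gb3 (0.61 ± 0.14), and the methyltransferase-like Mettl7a1 (0.67 ± 0.18) were called against late G1 alone, each lost in 5 of 9 leave-outs, and against G2 also with the block (0.00597, 0.0108 and 0.000826). Egln3, a prolyl hydroxylase of the hypoxia pathway, Dnajb9, a co-chaperone of the unfolded protein response, and the transporter-like Mfsd11 passed in both contrasts only with the block (adjusted p 0.00709 and 0.00221, 0.00771 and 0.00267, and 9.84e-05 and 0.000353). In the list of 20 genes of ATF4 and the unfolded protein response, 1 of the 19 other than Dnajb9 was called higher and 2 lower than in late G1 (4 and 5 with the block) and 0 against G2 (4 higher and 6 lower with the block).

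Sowahc, Fam117a and Lrrc56 were placed in no role. Sowahc, an ankyrin repeat protein, had treated values of 26.3, 27.5 and 23.8 CPM in early G1, 17.4, 18.99 and 15.99 CPM in late G1 and 16.4, 17.9 and 15.2 CPM in G2 and was called in both contrasts (0.47 ± 0.09 and 0.58 ± 0.09, adjusted p 0.0123 and 0.00616), the first lost in 2 of 9 leave-outs, up to 0.058 without early G1 library 1. Fam117a was called against late G1 (1.05 ± 0.20, adjusted p 0.0107, lost in 1 of 9 leave-outs, up to 0.0507 without late G1 library 3; against G2 0.118, 9.4e-05 with the block). Lrrc56, which acts in cilium assembly, was called against G2 (0.85 ± 0.18, adjusted p 0.0283, lost in 6 of 9 leave-outs, up to 0.121 without early G1 library 1).

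Of 15 non-coding RNAs and gene models, some of which RefSeq gives as protein-coding, 6 were called against late G1, 5 against G2, 2 in both and 6 in neither. The shares of tested genes called higher were 3.53% against late G1, 1.23% against G2 and 0.445% in both. Gt(ROSA)26Sor, the non-coding gene at the locus often used for transgenes, had treated values of 18.7, 16.4 and 15.3 CPM in early G1, 12.7, 9.67 and 10.99 CPM in late G1 and 11.1, 8.03 and 10.1 CPM in G2. It was 0.71 ± 0.17 above G2 (adjusted p 0.0429, lost in 6 of 9 leave-outs, up to 0.16 without early G1 library 1; against late G1 0.103, 0.000144 with the block). The host transcript of miR-22, 2210403K04Rik, was 0.58 ± 0.11 above G2 (adjusted p 0.0185, lost in 4 of 9 leave-outs, up to 0.0846 without early G1 library 3; against late G1 0.159, 0.0168 with the block). Gm8038 (1.10 ± 0.21 and 1.04 ± 0.21, the second lost in 5 of 9 leave-outs, up to 0.0955 without G2 library 3) and A330035P11Rik (0.55 ± 0.14 and 0.64 ± 0.14) were called in both contrasts. A330035P11Rik lost these calls in 8 and 6 of 9 leave-outs (highest adjusted p 0.144 and 0.136, both without early G1 library 1). Gm8332 was called against late G1 (1.30 ± 0.26, lost in 3 of 9 leave-outs, up to 0.0634 without late G1 library 3), and against G2 with the block (0.00426; 0.0715 without). Gm6763 was called against G2 (1.24 ± 0.28, lost in 6 of 9 leave-outs, up to 0.15 without G2 library 3), and against late G1 with the block (4.43e-06; 0.0554 without).

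**Figure D3:**
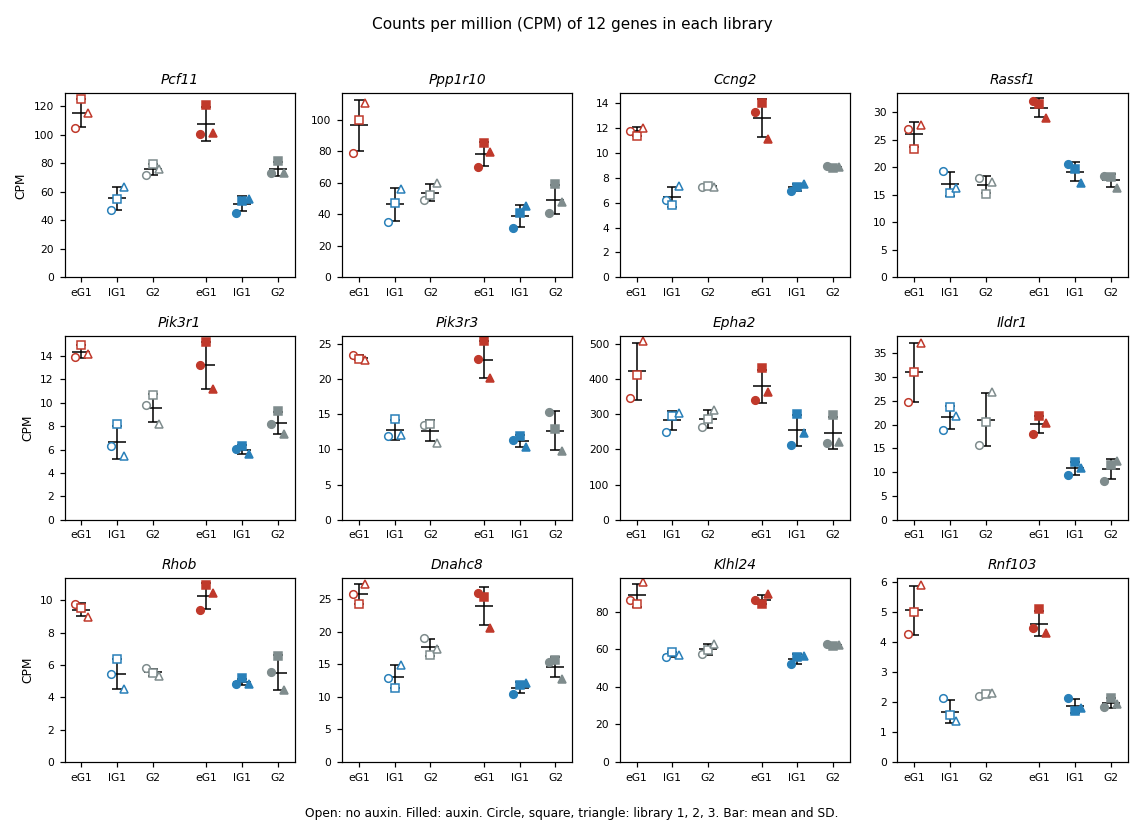
CPM of 12 of the genes in each of the 18 libraries (points; open without auxin, filled with auxin; circle, square and triangle for libraries 1, 2 and 3) with the mean and SD of each group of 3 (black), for early G1 (eG1), late G1 (lG1) and G2. In Pcf11, Pik3r1 and Dnahc8 G2 lies between the other phases, and in Ildr1 the treated groups lie lower than the untreated ones.

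**Figure D4:**
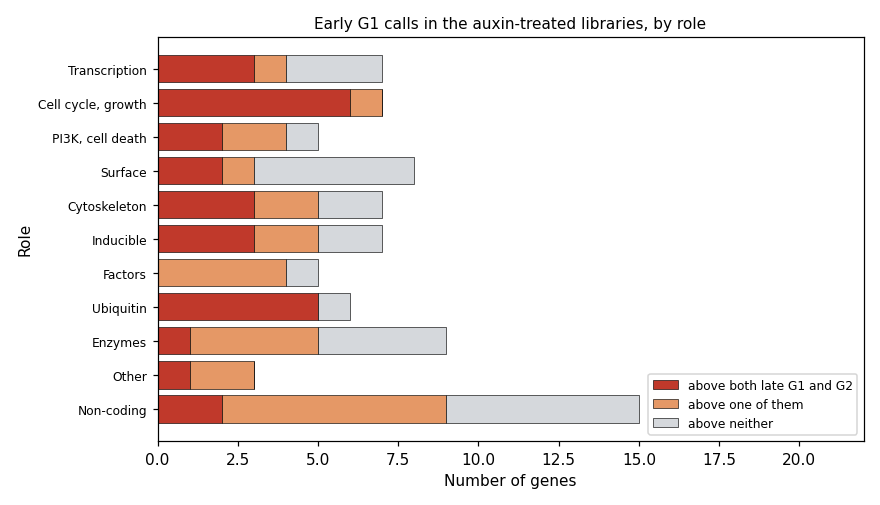
Number of genes in each role (bars) called higher in treated early G1 than in both late G1 and G2 (red), in 1 of them (orange) or in neither (grey), without the replicate block. All 7 cell-cycle and growth genes were called at least once, and 5 of 8 surface genes in neither contrast. Over all 79 genes, 68.4% were called at least once and 31.6% in neither. Roles were assigned by hand, and differences between them were not tested.

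H19, an imprinted non-coding RNA, and Igf2, its imprinted neighbour with 2 annotated genes between them in RefSeq, both depended on the library number. H19 had 9.095, 3.94 and 2.99 CPM in early G1, 2.096, 1.96 and 0.886 CPM in late G1 and 2.496, 2.32 and 1.34 CPM in G2 without auxin. Treated libraries of H19 had 8.42, 4.97 and 3.55 CPM in early G1, 3.096, 2.21 and 1.39 CPM in late G1 and 2.15, 2.64 and 0.844 CPM in G2. Library 1 was the highest and library 3 the lowest in each of the early and late G1 groups, and the differences of 1.23 ± 0.42 and 1.53 ± 0.43 were not called (adjusted p 0.112 and 0.0866) but passed with the block (2.76e-05 and 3.08e-06). Igf2 had treated values of 5.33, 7.002 and 3.198 CPM in early G1, 3.71, 4.24 and 2.57 CPM in late G1 and 3.19, 6.16 and 2.11 CPM in G2. Its G2 library 2 lay above early G1 libraries 1 and 3.

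Several genes did not repeat with auxin. Lars2, the mitochondrial leucyl-tRNA synthetase, had 142, 45.5 and 25.7 CPM in early G1, 29.7, 47.3 and 24.2 CPM in late G1 and 28.4, 62.9 and 36.9 CPM in G2 without auxin. Treated libraries of Lars2 had 27.2, 76.4 and 29.1 CPM in early G1, 26.6, 74.7 and 27.1 CPM in late G1 and 30.8, 70.6 and 29.5 CPM in G2. Untreated early G1 library 1 stood apart at 142 CPM, and in the other groups library 2 was the highest. The treated differences were -0.05 ± 0.59 over late G1 (adjusted p 0.971) and -0.04 ± 0.59 over G2 (0.983). Zeb1, a repressor of epithelial genes, had 7.905, 23.98 and 2.92 CPM in early G1, 1.68, 2.22 and 1.61 CPM in late G1 and 4.704, 1.19 and 7.72 CPM in G2 without auxin. Treated libraries of Zeb1 had 0.883, 1.23 and 8.79 CPM in early G1, 0.781, 1.19 and 0.676 CPM in late G1 and 8.19, 12.3 and 1.36 CPM in G2. Single libraries of early G1 and G2 were several times as high as others of their group, and the 2 treated differences had opposite signs (1.96 ± 1.18 and -1.04 ± 1.00, adjusted p 0.368 and 0.643). Pdgfrb, a receptor of fibroblasts and pericytes, had treated values of 5.09, 5.23 and 5.46 CPM in early G1, 3.93, 5.26 and 5.78 CPM in late G1 and 2.98, 4.37 and 4.16 CPM in G2. Its differences were -0.01 ± 0.17 over late G1 (adjusted p 0.974) and 0.40 ± 0.17 over G2 (0.25; 0.0272 with the block). The 10 fibroblast or feeder markers, 3 of them above a mean of 1 CPM, summed to 87.3 to 108 CPM in treated early G1, 74.9 to 96.2 in late G1 and 84.1 to 99.2 in G2, and their part in the result was not tested.

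Fgd5, an exchange factor for Cdc42 (0.35 ± 0.17 and 0.12 ± 0.16), and Megf11, a cell surface protein with EGF-like repeats (0.20 ± 0.17 and 0.34 ± 0.17), were called in neither contrast with or without the block. Apbb1, an adaptor of the amyloid precursor protein, was called against late G1 with the block alone (0.0214; 0.182 without). Gm4340 and Gm8766 were at 0 in single libraries and as high as 12.5 and 10.4 CPM in others, and neither fit called them. Gm17317 had 18.4 CPM in untreated early G1 library 3 against 7.66 and 7.51 in the other 2, and 4.62 to 6.16 in the treated ones. It passed against late G1 with the block alone (0.0207), as did Gm16624 (0.00715), and 1700094D03Rik passed in both contrasts with the block (0.0403 and 0.00982).

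**Figure D5:**
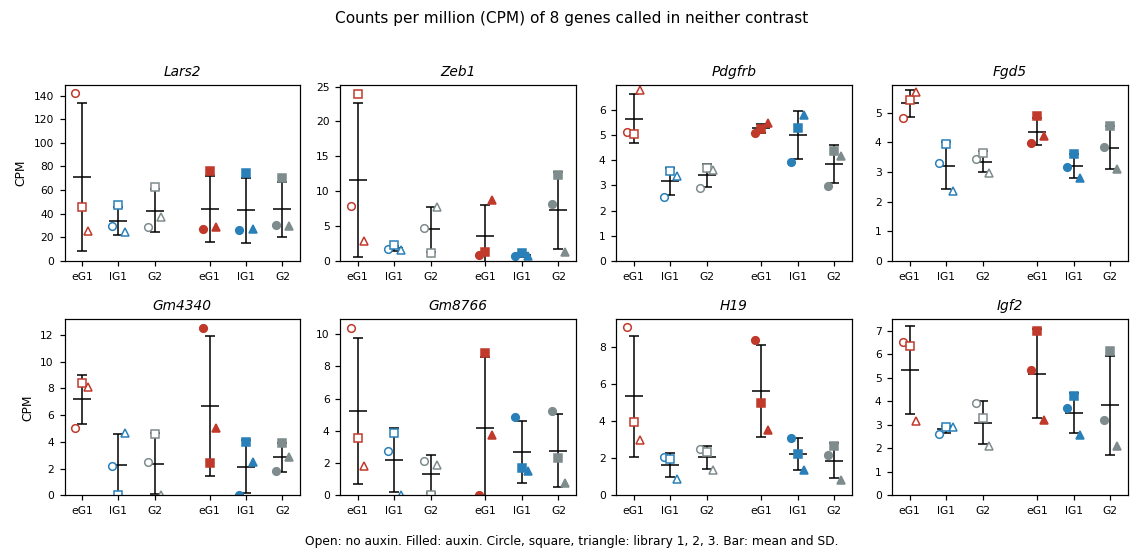
CPM of 8 genes called in neither contrast with auxin without the replicate block, drawn as in the plot of 12 genes. Points are libraries, with the mean and SD of each group of 3. With the block, H19 and Igf2 were called in both contrasts and Pdgfrb against G2. Lars2 has 1 untreated early G1 library at 142 CPM, Zeb1 ranges from 2.92 to 24.0 CPM in untreated early G1, and H19 is highest in library 1 in early G1 of both treatments.

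The level of the 79 genes within a phase was described with and without auxin, without a test, since each such difference contains untreated libraries that chose the genes. In early G1 the median log2 ratio of treated to untreated group means (CPM + 1) was -0.09, with 56 genes lower with auxin, in late G1 -0.04 with 49 lower and in G2 0.02 with 37 lower. The medians over all tested genes were -0.04, -0.05 and -0.04. In early G1 the ratios ran from -1.44 to 0.45.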

How the data were processed

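RNA was measured in 18 libraries of the 97 samples of the series, and the chromatin profiles (ChIP-seq, MNase-seq and ATAC-seq) were not used here. The deposited table of estimated counts per gene holds whole numbers made by the authors from reads, and the deposited TPM table holds the authors' length-scaled values to 2 decimals. STAR, RSEM and the mm9 assembly are named in the submitters' processing notes, without versions. Total counts were 24841963 to 37587322 per library, and counting error is small beside the spread between libraries except for genes of a few CPM.

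CPM, group means and SDs were computed from the counts. The tests used edgeR 4.0.16 (R 4.3.3) on the 9 auxin-treated libraries, with TMM scaling, the filterByExpr filter by group (15499 of 37620 genes), robust quasi-likelihood fits with 6 residual degrees of freedom, and Benjamini-Hochberg adjustment over all tested genes. A gene was called at an adjusted p under 0.05. The script was tested on simulated counts. Alternatives used DESeq2 1.42.0, limma 3.58.1 on log2(TPM + pseudocount), other filters, all 18 libraries, a replicate block and leaving out each library. Libraries share replicate numbers in their labels, and deviations from the group means correlated at 0.209 to 0.347 in every same-numbered pair of treated groups. The numbers were therefore taken to pair the libraries. All other pairs were below 0, but deviations sum to 0 within a group. Positive same-numbered values by themselves push the other values below 0 on balance.

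The genes and lists were chosen with earlier results of these data known. Named in the text were up to 20 genes called in both contrasts, ranked by the smaller log2 fold change, up to 6 called gene models, the 8 lowest by that value, the 6 of highest TPM, the 3 nearest each limit on either side and those in a gene list. The remaining members were named after their values were seen, to complete the roles, which were assigned by hand. Up to 3 other genes were named per list. Promoters and gene types came from RefSeq tables (GRCm38.p6), matched by symbol or synonym, and were not placed on mm9. Of the 79 genes, 1 is counted in all totals and is not reported here by name or drawn in the heat map.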

Additional observations from a re-analysis of the deposited data

How the results depend on the processing

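Of the 79 genes, the number called higher than in late G1 (46), than in G2 (36) and than in both (28) was 57, 45 and 40 with DESeq2. It was 44, 38 and 29 with all 18 libraries in the fit, 45, 38 and 31 without a low-count filter and 49, 37 and 31 with a stricter one. With the replicate block it was 70, 64 and 61, with TMM-scaled TPM (chosen after seeing the data) 31, 17 and 12, and with unscaled TPM 1, 0 and 0 under either pseudocount (1 or 0.1). None of these settings called a gene lower in early G1. Leaving out a library gave 21 to 45, 10 to 34 and 8 to 21. The 2 calls between late G1 and G2 became 7 with DESeq2, 1 without a filter, 20 with the block, 0 on each TPM scale and 1 to 2 without a library.

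Over all tested genes, the 1039 calls between early and late G1, in either direction, became 1508 with DESeq2. They were 1188 with all 18 libraries, 947 without a low-count filter and 1052 with a stricter one. On the TPM scales they were 625 with TMM scaling and 27 and 22 without it (pseudocount 0.1 and 1). They were 5142 with the replicate block and 395 to 1051 without a library. The 458 calls between early G1 and G2 were 622 with all 18 libraries, 473 without a filter and 458 with the stricter one. They became 888 with DESeq2, 278, 23 and 23 on the TPM scales, 3869 with the block and 146 to 398 without a library. The 734 between late G1 and G2 became 1203, 435, 88 and 70, 4041 and 353 to 592. The cause was not tested.

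The conditions picked 37 genes with TMM-scaled CPM, 4 with TPM (3 of them among the 79), 3 with a limit of 1 in place of 0.5, 165 with a floor of 1 CPM, and 99, 89 and 63 without the 3 untreated libraries numbered 1, 2 and 3 (65, 67 and 52 of them among the 79).

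Signs reversed in 5 genes, none of them called. Pdgfrb over late G1 was 0.0019 with TMM-scaled TPM, 0.046 and 0.0087 with TPM (pseudocount 0.1 and 1), 0.013 with the stricter filter and -0.14 to 0.10 without a library. Lars2 over late G1 was 0.034 and 0.021 with TPM and -0.65 to 0.57 without a library, and over G2 -0.64 to 0.42. Gm8766 was -0.23 and -0.17 with TPM (pseudocount 0.1) over late G1 and G2, and -0.64 to 1.30 and -0.64 to 1.39 without a library. Without a library Efnb2 over G2 was -0.0018 to 0.54, and Apbb1 -0.090 to 0.27. Genes of a few CPM and 3 libraries a group limit what could be called.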

Other observations

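Of the 79 genes, 8 stand in a list of 30 targets of the FOXO transcription factors, which PI3K signals keep out of the nucleus. This list was drawn up after the values were seen, so neither its overlap with the 79 nor the calls of its other genes are evidence. Gadd45b, Ccng2, Sesn3, Mxd4, Pik3r1 and Klhl24 were called higher than in both phases with auxin. Each of these genes lost a call in some leave-outs, as given above. Bmf was called against G2 alone and Bnip3 in neither contrast, and with the replicate block both genes were called in both contrasts. Of the other 22 tested genes of the list, 2 were called higher and 1 lower than in late G1 (8 and 5 with the replicate block) and 2 higher and 0 lower than in G2 (10 and 0 with the block). Shares of all tested genes were 3.53% and 3.17% against late G1 (15.1% and 18.1% with the block). Against G2 they were 1.23% and 1.73% (11% and 14% with the block). Cdkn1b, a cyclin-dependent kinase inhibitor, was at 22.5 CPM in treated early G1, against 11.6 CPM in late G1 and 21.0 CPM in G2, and Cited2 had 19.3, 10.7 and 15.8 CPM, so these were called against late G1 alone. Txnip (226, 183 and 154 CPM) was called against G2 alone. The FOXO motif TGTTTAC was in 0 of the 72 promoter windows of the 79 genes and in 2.55% of windows of tested genes.

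Outside the 79, the naive pluripotency list had 5 of 25 genes called higher in treated early G1 than in late G1 and 0 lower, and 1 higher and 0 lower than in G2. With the replicate block these were 15 and 2, and 9 and 1. Over all tested genes, 3.53% were called higher and 3.17% lower than in late G1 (15.1% and 18.1% with the block). The shares against G2 were 1.23% and 1.73% (11% and 14% with the block). Nanog, a core pluripotency factor, was at 245 CPM in treated early G1, against 152 CPM in late G1 and 164 CPM in G2. Of the BMP and Nodal target list, which holds 2 of the 79, 2 of the other 11 tested genes were called higher than in both phases: Id1, named above, and Id4, at 2.26, 0.803 and 0.861 CPM. With the block 7 were higher and 2 lower than in late G1, and 6 higher and 2 lower than in G2.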
